A study of Capra hircus with 3 samples.

Results

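The probes described here are those for genes of cell junctions, of the skin barrier and of integrins on a sheep expression array that was hybridised with skin RNA of Arbas Cashmere goats. A probe was included when its array annotation, controls left out, contained the name of a desmosomal protein, a cadherin, a tight junction or gap junction protein, a cornified envelope protein or an integrin. This gave 38 of the 15008 probes, which represented 23 of the 14363 identifiers on the array. By role, 2 probes were for desmosomal plaque proteins, 5 for cornified envelope proteins, 8 for tight junction proteins, 7 for gap junction proteins and 16 for integrins or proteins that bind them. Of the names searched, desmoglein, desmocollin, plakophilin, cadherin, occludin, envoplakin, involucrin, loricrin and cornifin were each found in 0 annotations, so no probe was found by name for the adhesive cadherins of desmosomes or of adherens junctions. Probes annotated as anonymous cDNAs were not searched further. All 38 probes were tested. Of these, 33 were well above background in at least 1 channel on each of the 3 arrays, and 30 in both channels on each array.

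The goats were 2-year-old females of 1 strain. In the short photoperiod group, 3 goats grazed from 9:30 to 16:30 and spent the rest of the day in a dark shed at about 0.1 lux and 1 degree below the outside temperature. In the natural photoperiod group, 3 goats grazed in natural conditions. Skin was cut whole from the side of the body, so each sample held epidermis, hair follicles, dermis and vessels, and a lower level from fewer cells of a type cannot be told apart from less RNA per cell. Each array compared 1 goat of the short photoperiod, labelled with Cy5, with 1 goat of the same parent under natural conditions, labelled with Cy3. The dyes were swapped on 0 arrays, so that dye and photoperiod cannot be told apart for any probe. The probes were designed on sheep sequences, and how well each one binds the goat transcript was not measured.

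Cells of the epidermis and the hair follicle are joined by several kinds of contact. Desmosomes tie the keratin filaments of neighbouring cells together through plaque proteins, tight junctions seal the space between cells, and gap junctions are channels of connexin proteins through which ions and small molecules pass from cell to cell. The cornified envelope is the cross-linked protein layer that forms under the membrane of dying keratinocytes. Integrins are pairs of an alpha and a beta chain that bind the matrix or, on leukocytes, other cells and complement fragments.

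The probe sequences of the genes that the results turn on are given first, because they show which measurements are independent of each other. All are 60 bases long and are written 5′ to 3′ as the array lists them, with the start base in the sheep record on which they were designed. For probes that may reach beyond the coding sequence, the first 30 bases are printed. Capitals mark bases that another probe of the same gene also covers.
GJB2, base 497: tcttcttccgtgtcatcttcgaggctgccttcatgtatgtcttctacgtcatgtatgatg
GJB2, base 656: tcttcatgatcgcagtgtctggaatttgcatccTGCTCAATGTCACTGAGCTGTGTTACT
GJB2, base 689: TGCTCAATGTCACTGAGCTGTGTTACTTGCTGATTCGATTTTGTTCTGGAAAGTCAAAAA
GJB2, base 690: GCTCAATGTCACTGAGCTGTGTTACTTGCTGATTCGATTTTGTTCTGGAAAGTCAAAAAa
GJA1, base 231: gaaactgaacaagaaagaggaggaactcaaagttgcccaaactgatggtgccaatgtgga
GJA1, base 431: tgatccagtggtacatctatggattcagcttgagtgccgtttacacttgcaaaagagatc
ITGB6, base 2704: agaagagagatatccttagcatggggtgac
ITGB6, base 2764: gttgcattaatgcctcaaaaaatcatcaga
ITGB2, base 2323: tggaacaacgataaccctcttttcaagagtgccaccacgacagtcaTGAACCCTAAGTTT
ITGB2, base 2369: TGAACCCTAAGTTTgccgagagttaggggt
Desmoplakin, base 32: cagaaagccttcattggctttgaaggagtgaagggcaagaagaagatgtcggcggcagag
The GJB2 probes at bases 689 and 690 shared 59 of their bases and thus measured nearly the same stretch, the probe at base 656 shared 27 bases with the one at base 689, and the probe at base 497 shared 0 bases with the others. The GJA1 probes shared 0 bases, the ITGB6 probes shared 0 bases, and the ITGB2 probes shared 14 bases. Probes of 1 gene were hybridised with the same RNA and are not replicates of the photoperiod.

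Ratios are given as the log2 of short over natural photoperiod, so that positive values stand for more signal in the short photoperiod sample, and errors are the SD over the 3 arrays. Levels are intensities after normalization of both channels and are compared only within a probe or, as a sum over probes, within a list of markers. In such a sum the brightest probes weigh most. At an adjusted p under 0.05 (limma with Benjamini-Hochberg adjustment over all tested probes), 0 of the 38 probes were called, against 1 of the 14977 tested probes, or 0.00668%. At an unadjusted p under 0.05, 14 of the 38 probes (36.8%) passed, 8 with a higher and 6 with a lower level under the short photoperiod, against 18.5% of all tested probes, of which 9.11% were higher and 9.35% lower. The 14 were all probes of GJB2 (4 probes) and of GJA1, ITGB6, ITGB2, ITGAM and ITGA4 (2 each). These genes thus enter the 36.8% more than once, whereas the whole array held 15008 probes for 14363 identifiers. The share by gene at this threshold was not computed. A fit of the separate channels that took them as unpaired samples also called 0 of the 38 probes, and 5 of them passed at an unadjusted p under 0.05, against 1085 of 14868 probes in that fit. The ratio had the same sign on all 3 arrays for 23 probes (60.5%), against 43.7% of all probes. The samples of the photoperiods did not overlap for 7 probes (18.4%), against 13.6% of all probes. These were probes of GJB2, ITGB6, ITGA4 and LOC443313, the last not above background. Averaged by identifier, 5 of 23 genes were higher on all arrays, against 21.7% of all identifiers, and 6 were lower on all arrays, against 22%. A 2-fold mean change was reached by 0 of the 38 probes, against 0.841% of all probes (0.427% upward and 0.414% downward), and the nearest below that limit were the GJB2 probe at base 497 with a mean of 0.82 and the GJA1 probe at base 431 with 0.80.

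**Figure D1:**
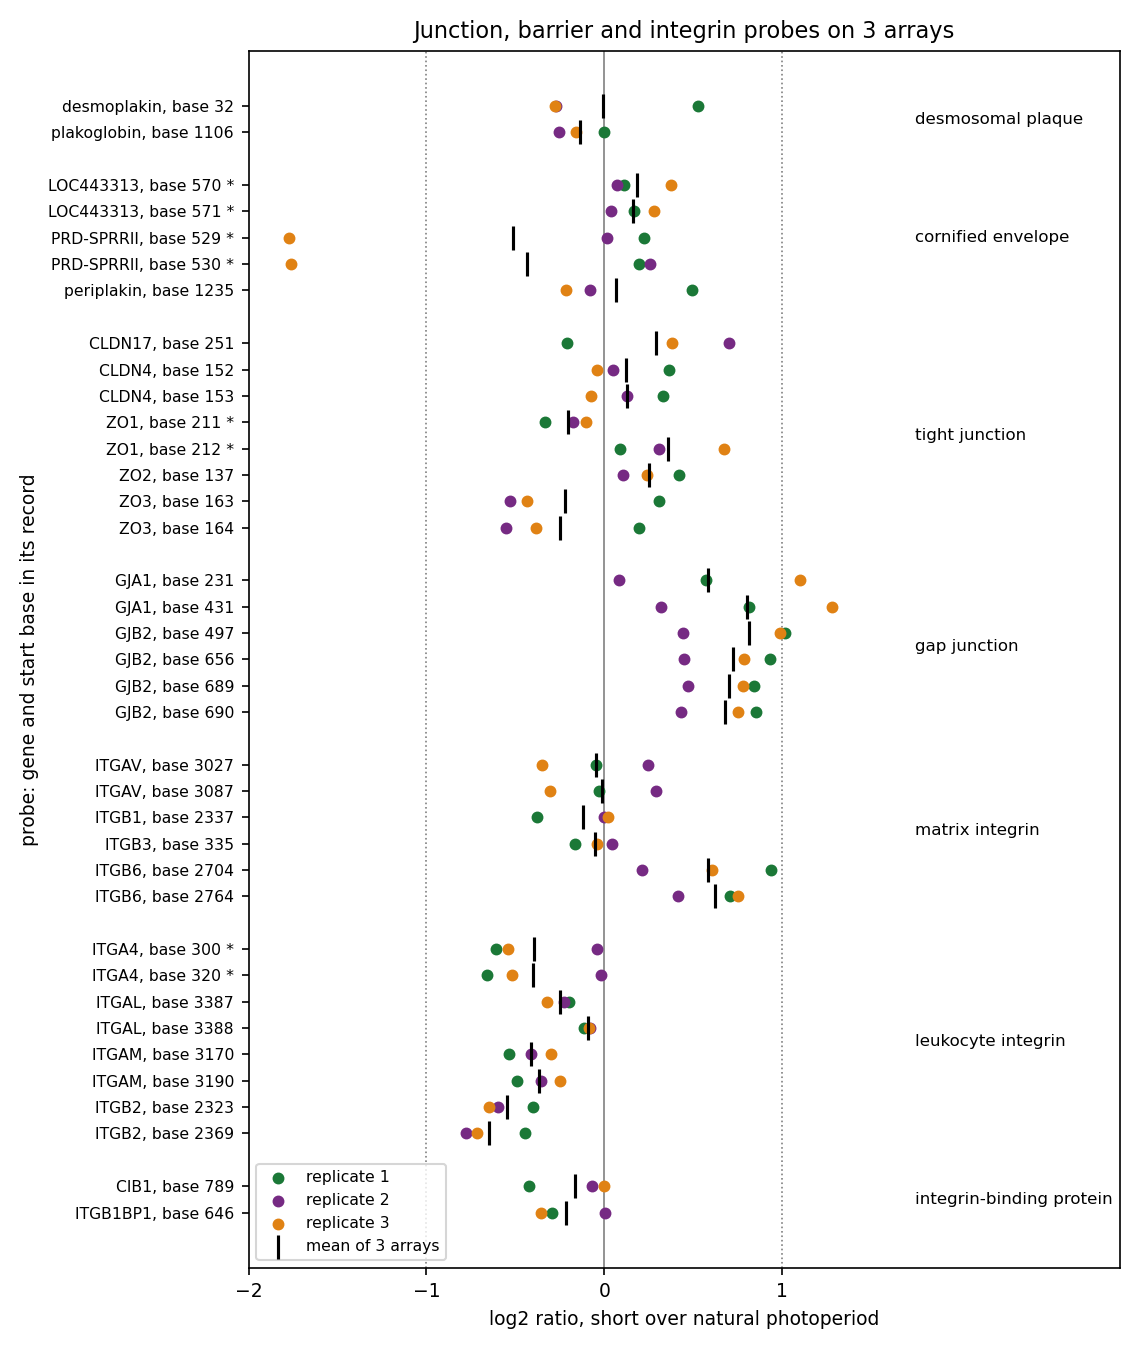
Each row is 1 of 37 probes, named by gene and start base, and each coloured point is its log2 ratio (short over natural photoperiod) on 1 array, with a black bar at the mean of 3 arrays, a solid line at 0 and dotted lines at a 2-fold change. An asterisk marks a probe that failed to exceed background clearly in at least 1 of the 6 samples. The 6 probes of GJB2 and GJA1 lie right of 0 on every array, the 8 probes of leukocyte integrins lie left of it, and the desmosomal plaque probes lie close to 0 or on both sides.

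The highest median ratio of a role group was that of the gap junction proteins and the lowest that of the leukocyte integrins. The median of the mean ratios was 0.70 for gap junction proteins, 0.13 for tight junction proteins, 0.07 for cornified envelope proteins, −0.07 for desmosomal plaque proteins and −0.19 for integrins and their binding proteins, against −0.0067 for all tested probes. Within the integrins, the median was −0.40 for the chains of leukocytes and −0.03 for the chains that pair into matrix receptors. On the single arrays, the gap junction median was 0.84, 0.43 and 0.79, and the median of leukocyte integrins was −0.47, −0.29 and −0.42. The median of the desmosomal plaque proteins was 0.27, −0.26 and −0.22, so its sign differed between arrays. These medians are a description and were not tested, since the probes of a group are not replicates. With each array centred on its median in place of loess, the gap junction median was 0.77 and the integrin median −0.30, while the signs of the other groups turned, with −0.03 for tight junction, −0.37 for cornified envelope and 0.31 for desmosomal plaque proteins. The medians include probes near background. After loess, with only probes above background in both channels kept, 1 of the 5 cornified envelope probes remained, periplakin at 0.07. Of the 8 tight junction probes, 6 remained, with a median of 0.13.

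**Figure D2:**
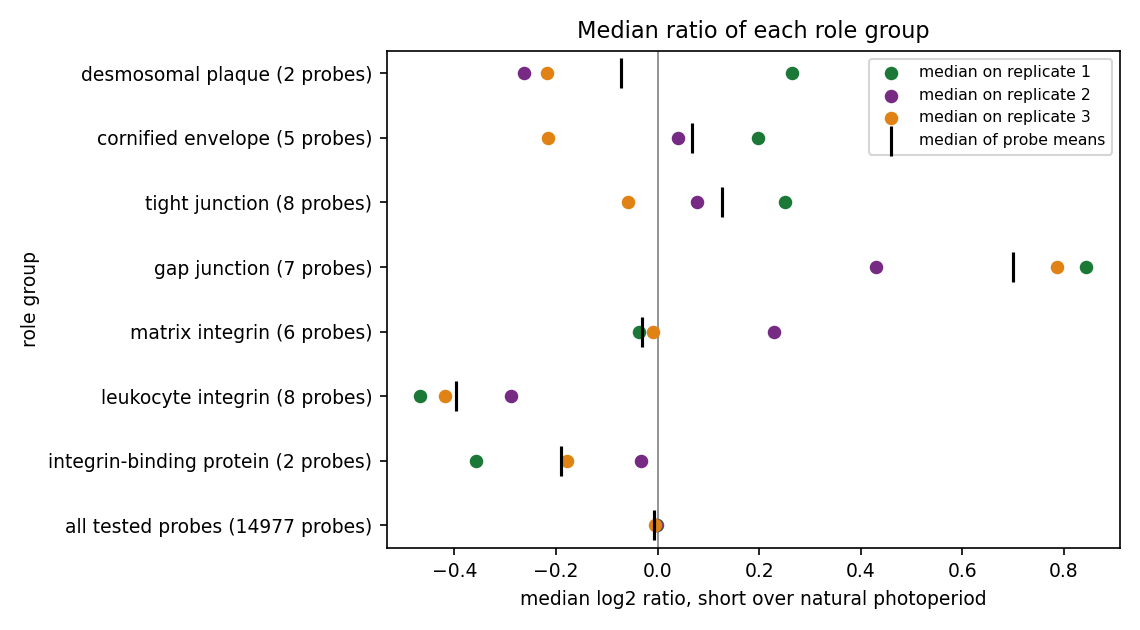
The horizontal axis gives the median log2 ratio (short over natural photoperiod) over the probes of each role group, with 1 coloured point per array and a black bar for the median of the probe means. The gap junction points lie between 0.43 and 0.84 and the leukocyte integrin points between −0.47 and −0.29, while the medians of all 14977 tested probes lie at 0 within the width of the symbols.

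Of the gap junction genes, GJB2 and GJA1 had higher mean levels under the short photoperiod. GJB2 codes for connexin 26, a channel protein of keratinocytes whose mutations in people cause deafness and skin disease. The level of GJB2 at base 497 was 31090, 24150 and 23930 in the short photoperiod samples of replicates 1, 2 and 3 and 15370, 17760 and 12070 in their natural photoperiod partners. All short photoperiod samples were above all natural photoperiod samples, as they were for 6.44% of all probes. Its log2 ratios were 1.02, 0.44 and 0.99, with a mean of 0.82 ± 0.32 (SD, n = 3 arrays), a fold of 1.76 and a limma adjusted p of 0.1547. The other GJB2 probes had means of 0.72, 0.70 and 0.68, or folds of 1.65, 1.62 and 1.60, each with a limma adjusted p of 0.1547. Each of the 4 probes was higher on each array and had its smallest ratio on replicate 2, between 0.43 and 0.47.

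On every GJB2 probe, the samples of replicate 3 were the dimmest of their group. At base 689 the level was 15830, 11850 and 8558 under the short photoperiod and 8818, 8540 and 4980 under the natural one, so that the lowest short photoperiod sample lay below the highest natural one. At base 690 it was 19290, 15150 and 11570 against 10660, 11240 and 6862, and the groups did not overlap. The probes that share 59 bases gave mean ratios 0.02 apart, and the probe that shares no base with them lay 0.12 and 0.14 above them.

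GJA1 codes for connexin 43, the most widely expressed connexin, which keratinocytes, follicle cells and fibroblasts all use. At base 431 its level was 7499, 5679 and 4022 under the short photoperiod and 4267, 4552 and 1654 under the natural photoperiod. At base 231 the level was 11210, 10300 and 6906 against 7553, 9729 and 3214. In both, each goat of the short photoperiod was above its partner but the groups overlapped, because both samples of replicate 3 were the dimmest of their group. The log2 ratios were 0.81, 0.32 and 1.28 at base 431, with a mean of 0.80 ± 0.48 (SD, n = 3 arrays, limma adjusted p = 0.1852), and 0.57, 0.08 and 1.10 at base 231, with a mean of 0.59 ± 0.51 (limma adjusted p = 0.247). As for GJB2, the smallest ratio was that of replicate 2.

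Within the same array, the ratio of GJA1 minus that of GJB2, each with its probes averaged, was −0.22, −0.25 and 0.37 on replicates 1, 2 and 3, with a mean of −0.03 ± 0.35 (SD, n = 3). The order of these connexins thus differed between arrays. A two-sided exact test by sign flips over 3 arrays cannot give a p below 0.25, so no p is given for this difference.

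**Figure D3:**
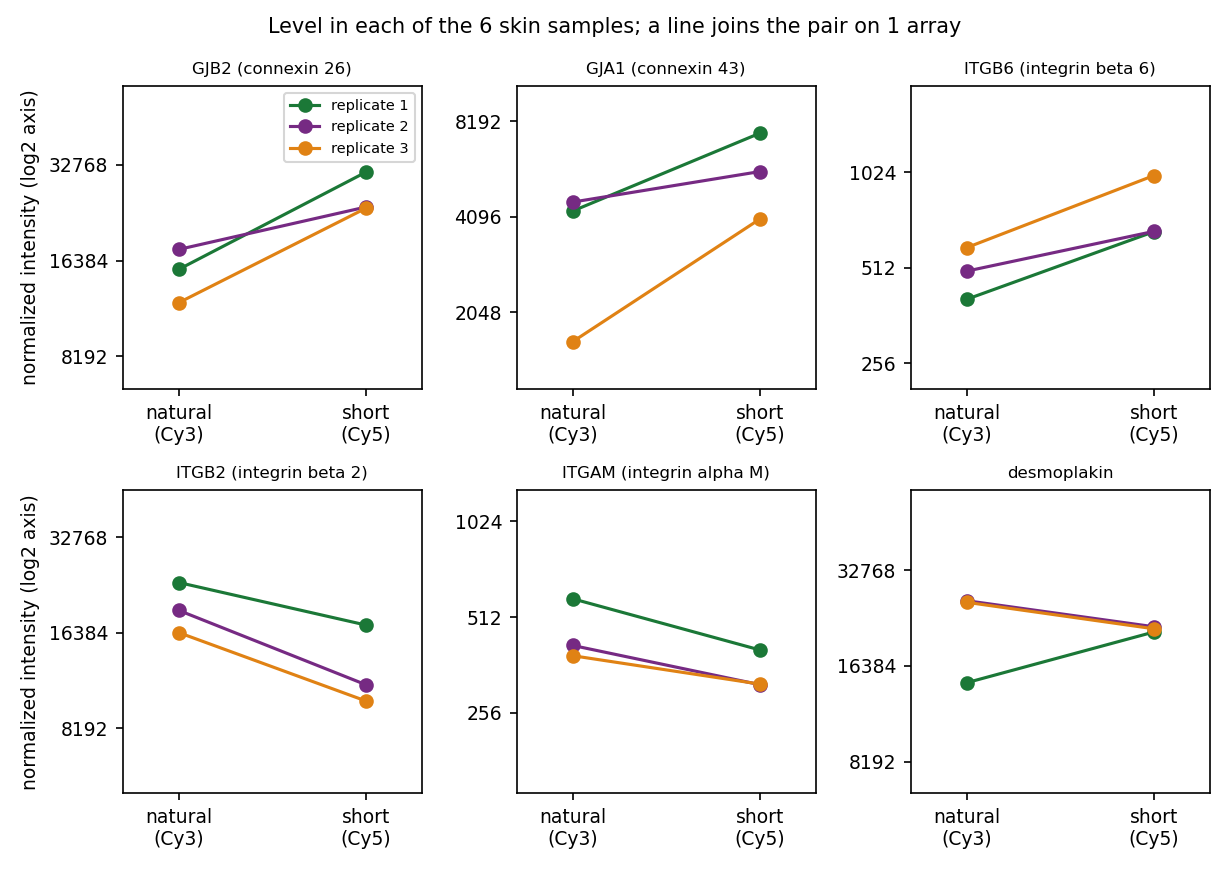
Normalized intensity (log2 axis, a range of 9-fold in every panel) of 1 probe for each of GJB2 (base 497), GJA1 (base 431), ITGB6 (base 2764), ITGB2 (base 2369), ITGAM (base 3170) and desmoplakin in the natural and short photoperiod samples, with a line joining the goats compared on 1 array. All lines go up for GJB2, GJA1 and ITGB6 and down for ITGB2 and ITGAM, whereas for desmoplakin the line of replicate 1 goes up and the others go down.

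The markers of other cell types are given here because the ratios of the junction genes were measured in whole skin. For hair shaft and inner root sheath, 3 of 7 listed genes were found (KRT27, KRT34 and KRT85). They had 3 probes, all higher on every array, as 21.6% of all probes were. Their median ratio was 1.19, and their summed level was 204500 to 217700 under the short photoperiod against 58130 to 126100 under the natural one. The paper reports these genes as up-regulated from these same arrays, so their direction was known beforehand and is not an independent result. For the epidermis, 3 of 6 listed genes were found (KRT5, KRT14 and KRT15). Flagged spots left a different set of these probes on each array, so no summed level is given. KRT14, a keratin of basal keratinocytes, had ratios of 1.25, 0.64 and 0.16. KRT15, another basal keratin, had ratios of 0.72 and −0.65 on replicates 1 and 3 and a flagged spot on replicate 2, with a limma adjusted p of 0.9648 from these 2 arrays, and KRT5 had an unflagged ratio on replicate 1 alone. The epidermal list thus had a median of 0.36 over KRT14 and KRT15 and did not share a direction on replicate 3. All probes found for both lists were above background in every channel, so epithelium of both kinds was present in the samples. For fibroblasts, 4 of 5 listed genes were found (COL1A1, COL3A1, DCN and LUM), with a median ratio of −0.33 and a summed level of 150400 to 161900 under the short photoperiod against 128200 to 192700. The COL3A1 probes were lower on every array, with means of −0.62 and −0.60, and the DCN probes had means of 0.16 and 0.06. The part of the amounts of epidermis, follicle and fibroblasts in the connexin ratios was not tested.

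The desmosomal plaque proteins did not share a direction over the arrays. Desmoplakin anchors keratin filaments to the desmosome. Its level was 20950, 21780 and 21460 under the short photoperiod and 14510, 26300 and 26000 under the natural photoperiod. The short photoperiod samples were nearly equal, and the natural photoperiod sample of replicate 1 was the lowest of all. The ratios were 0.53, −0.27 and −0.28, with a mean of −0.01 ± 0.46 (SD, n = 3 arrays), a 95% interval of limma from −0.51 to 0.49 and a limma adjusted p of 0.9878. Plakoglobin, which binds desmosomal cadherins to desmoplakin, had levels of 33120, 27290 and 23980 under the short photoperiod against 33100, 32550 and 26790. Its ratios were 0.00, −0.25 and −0.16, with a mean of −0.14 ± 0.13 (SD, n = 3 arrays), a 95% interval from −0.41 to 0.13 and a limma adjusted p of 0.5188. Both genes had positive means, each of 0.31, when the arrays were centred on their medians, and both intervals include changes in either direction.

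Of the cornified envelope genes, periplakin was measured well and the small proline-rich proteins poorly. Periplakin, a plakin that links the envelope to desmosomes and keratin filaments, had levels of 51480, 49710 and 51050 under the short photoperiod and 36510, 52470 and 59280 under the natural photoperiod. As for desmoplakin, the short photoperiod samples were close together and the natural photoperiod sample of replicate 1 was the lowest. Its ratios were 0.50, −0.08 and −0.22, with a mean of 0.07 ± 0.38 (SD, n = 3 arrays) and a limma adjusted p of 0.8468. This probe was brighter than 97.8% of all probes, and with median centring its mean was 0.80 with a limma adjusted p of 0.03489.

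Small proline-rich proteins are cross-linked into the envelope as bridges between its other proteins. The type II protein annotated PRD-SPRRII had probes at bases 529 and 530, of which the first was above background on 1 array in Cy5 and on 2 in Cy3, and the second on 2 and 3. The levels at base 530 were 241.5, 135.5 and 105.1 under the short photoperiod and 210.5, 113.4 and 357.1 under the natural photoperiod. On replicates 1 and 2 the partners were close, with ratios of 0.20 and 0.26, and on replicate 3 the natural photoperiod sample was higher, with a ratio of −1.76. The mean of −0.44 ± 1.15 (SD, n = 3 arrays, limma adjusted p = 0.6162) thus came from replicate 3, without which it was 0.23. The mean at base 529 was −0.51 and without replicate 3 it was 0.12. The other type II gene, LOC443313, was not well above background in either channel on any array, so the ratios of its pair of probes, marked with an asterisk in the plot of all probes, are those of background signal and are not read here.

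The tight junction genes had small mean ratios. Of their 8 probes, 0 passed at an unadjusted p under 0.05 in limma, against 18.5% of all tested probes. With so few probes, this count does not set the group apart. Claudin 4 is a sealing protein of the strands of tight junctions. Its level at base 152 was 21340, 13900 and 11420 under the short photoperiod against 16560, 13440 and 11760, with ratios of 0.37, 0.05 and −0.04 and a mean of 0.12 ± 0.21 (SD, n = 3 arrays, limma adjusted p = 0.6137). The probe shifted by 1 base gave 0.13. Claudin 17, which forms anion-selective pores, had levels of 990.0, 1702 and 956.1 against 1145, 1047 and 733.5, and a mean ratio of 0.29 ± 0.46 (SD, n = 3 arrays) with replicate 1 on the other side of 0.

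The zonula occludens proteins are the scaffolds that tie claudins to actin. ZO2 was the only tight junction gene measured above background in both channels that was higher on each array. Its level was 641.9, 615.6 and 504.6 under the short photoperiod and 480.4, 572.5 and 427.1 under the natural photoperiod, with ratios of 0.42, 0.10 and 0.24 and a mean of 0.25 ± 0.16 (SD, n = 3 arrays, limma adjusted p = 0.3029). With median centring the mean was 0.06 and replicates 2 and 3 were below 0. ZO3 had means of −0.22 and −0.25 on its probes, with replicate 1 higher and the others lower under the short photoperiod. The ZO1 probes were close to background. The one at base 211 was above background on 0 arrays in Cy5 and on 1 in Cy3, and the one at base 212 on 1 array in each channel, so neither gives a usable ratio.

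The integrin genes fell into chains of matrix receptors, chains of leukocyte receptors and proteins that bind integrin tails. Of the matrix chains, ITGB6 had the highest ratios. The beta 6 chain is made by epithelial cells, pairs with alpha V and activates latent TGF-beta. At base 2764 its level was 665.4, 667.2 and 1000.0 under the short photoperiod and 407.8, 500.2 and 593.2 under the natural photoperiod. At base 2704 it was 5526, 2959 and 3030 against 2882, 2559 and 1992. On both probes all short photoperiod samples were above all natural ones, as they were for 6.44% of all probes. The ratios were 0.71, 0.42 and 0.75 at base 2764, with a mean of 0.63 ± 0.18 (SD, n = 3 arrays, limma adjusted p = 0.1547), and 0.94, 0.21 and 0.60 at base 2704, with a mean of 0.58 ± 0.37 (limma adjusted p = 0.2004). The smallest ratio was again on replicate 2.

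The partner of the beta 6 chain, ITGAV, had ratios of −0.04, 0.25 and −0.35 at base 3027, with a mean of −0.05 ± 0.30 (SD, n = 3 arrays, limma adjusted p = 0.8731), and a mean of −0.01 at base 3087. ITGB1, the beta chain of most collagen, laminin and fibronectin receptors, had levels of 14300, 20300 and 19250 under the short photoperiod against 18610, 20280 and 18970. Its partners were level on replicates 2 and 3, and the mean ratio was −0.12 ± 0.23 (SD, n = 3 arrays) with a 95% interval of limma from −0.44 to 0.20. ITGB3, the beta chain of the platelet and endothelial receptor for fibrinogen and vitronectin, had a mean of −0.05 ± 0.11 (SD, n = 3 arrays). The integrin-binding proteins CIB1 and ITGB1BP1 had means of −0.17 and −0.21, and CIB1 was farthest below 0 on replicate 1, with −0.42, and close to 0 on replicate 3.

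All 8 probes of the leukocyte integrins were lower under the short photoperiod on every array, where 22% of all probes were. At an unadjusted p under 0.05 in limma, 6 of them passed, where 9.35% of all probes were lower. The 6 were the overlapping probe pairs of ITGB2, ITGAM and ITGA4 and are not independent measurements. ITGB2 codes for the beta 2 chain shared by LFA-1 and Mac-1, the adhesion and complement receptors of leukocytes. At base 2369 its level was 17340, 11250 and 9998 under the short photoperiod and 23600, 19280 and 16410 under the natural photoperiod. At base 2323 it was 12850, 9582 and 7554 against 16940, 14480 and 11820. Each goat of the short photoperiod was below its partner, but its level on replicate 1 exceeded the natural photoperiod level on replicate 3, so the groups overlapped. The ratios were −0.44, −0.78 and −0.72 at base 2369, with a mean of −0.65 ± 0.18 (SD, n = 3 arrays, limma adjusted p = 0.1547), and the mean at base 2323 was −0.55 ± 0.13 (SD, n = 3 arrays, limma adjusted p = 0.1599).

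ITGAM and ITGAL code for the alpha chains that pair with beta 2 in Mac-1 and LFA-1. The level of ITGAM at base 3170 was 403.4, 313.6 and 314.9 under the short photoperiod and 584.6, 416.7 and 386.8 under the natural photoperiod, with ratios of −0.54, −0.41 and −0.30 and a mean of −0.41 ± 0.12 (SD, n = 3 arrays, limma adjusted p = 0.1858). The mean at base 3190 was −0.36. ITGAL had means of −0.25 ± 0.07 and −0.09 ± 0.02 (SD, n = 3 arrays) on probes that share 59 bases, which differ by more than either SD. ITGA4, the alpha 4 chain with which lymphocytes bind VCAM-1 on endothelium, was close to background. Its probes were above background on 1 array in Cy5 and on all 3 in Cy3, and both had a mean of −0.40, with a ratio near 0 on replicate 2. Their means depended on the processing, with −0.78 and −0.77 under median centring and −1.18 and −1.01 with Feature Extraction's own log ratio (limma adjusted p of 0.2063 and 0.2472). The probe at base 320 was the only one of the 38 with all short photoperiod samples below all natural ones, at 146.3, 172.4 and 165.3 against 230.6, 174.8 and 236.5, which 7.16% of all probes had.

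The leukocyte list, from which ITGAM and ITGB2 were left out, was lower too. CD14, LYZ, FCER1G and CD3E were found, 4 of the 8 listed genes, and PTPRC and CD68 were not found. Their 8 probes were lower on each array, with a median ratio of −0.36 and medians of −0.43, −0.19 and −0.54 on replicates 1, 2 and 3. Their summed level, in which the brightest probes weigh most, was 93320 to 111500 under the short photoperiod and 126300 to 151000 under the natural photoperiod. The part of leukocyte number in the ratios of the leukocyte integrins was not tested. The endothelial list, with PECAM1, VWF and SELE found of 7 genes, was also lower, with a median of −0.49 over its probes and −0.33 by gene. The SELE probes had means of −0.66 and −1.03 and PECAM1 a mean of −0.33. The paper reports SELE as down-regulated from these same arrays, so its direction was known beforehand. VWF had a mean of −0.21, with replicate 1 at 0.03. The summed level of the list was 24970 to 28900 against 34120 to 39060. Of the adipocyte list, the LPL probes had means of −0.66 and −0.72 and were lower on every array, and the PLIN1 probes had means of 0.02 on each. TYR of the melanocyte list had means of −0.30 and −0.21, with replicate 3 above 0.

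**Figure D4:**
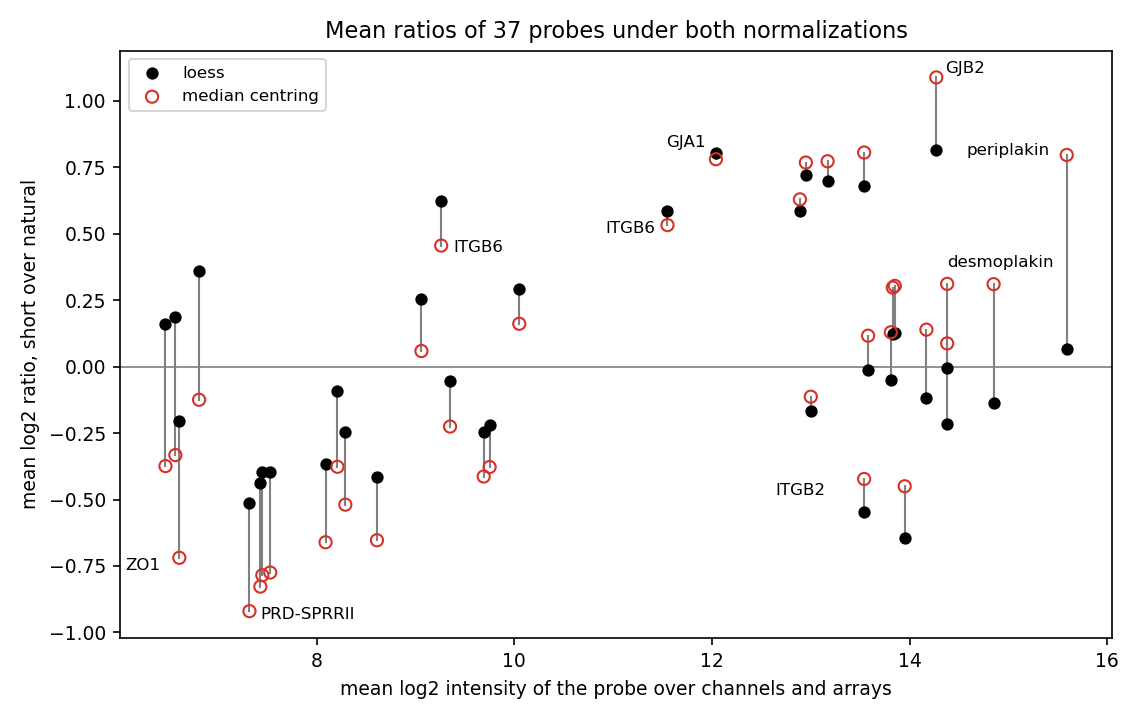
Each of 37 probes is placed by its mean log2 intensity over channels and arrays (horizontal axis) and by its mean log2 ratio (vertical axis), with a filled point after loess, an open point after median centring and a line joining them. Dim probes move down and bright ones up under median centring, from 0.07 to 0.80 for periplakin, whereas GJA1, GJB2 and ITGB6 stay above 0 and ITGB2 below 0 under both.

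How far the normalization moved a ratio varied with the brightness of the probe. With all probes divided by intensity into 4 classes of like size, median centring left mean ratios with a median of −0.33 in the dimmest class and 0.34 in the brightest, where loess gave −0.0031 and −0.015. The dimmest class held 17 of the 38 probes and the brightest 11. With median centring, 10 of the 38 probes (26.3%) had an adjusted p under 0.05 in limma, against 12.6% of all probes. These were the 4 probes of GJB2 and the periplakin probe, with higher levels under the short photoperiod, and both probes of ITGAM, both of ITGA4 and the ZO1 probe at base 211, with lower levels. The ratios of GJB2, GJA1 and ITGB6 stayed above 0 and those of ITGB2, ITGAM, ITGAL and ITGA4 below 0 on each array under both normalizations.

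Among other genes of the junction and adhesion pathways, listed by annotation, 8 probes for 7 genes were found. Of these, 0 were called, against 1 of all 14977 tested probes. Their median ratio was −0.07. Tetraspanin-17, a membrane protein of the family that organises integrins and proteases in the membrane, was higher on each array, with ratios of 0.67, 0.43 and 0.57 and a mean of 0.56 ± 0.12 (SD, n = 3 arrays, limma adjusted p = 0.1547). It was the only one of the 8 that passed at an unadjusted p under 0.05 in limma. At that threshold 18.5% of all tested probes passed, so this count does not set the list apart. CD151, the tetraspanin of laminin-binding integrins, had a mean of −0.25 ± 0.13 (SD, n = 3 arrays). Bullous pemphigoid antigen 1, the plakin of hemidesmosomes, had ratios of 0.61, 0.36 and −0.54, with replicate 3 on the other side of 0. Laminin alpha 4, of vessel basement membranes, had a mean of −0.18 and laminin receptor 1 a mean of 0.31.

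Probes of 1 record that were placed apart or shifted gave close means in general. There were 18 such pairs from 13 records, 17 with the same sign, and the gap between their means had a median of 0.05, against a median SD between arrays of 0.23. Of these pairs, 12 shared bases, 7 of them shifted by 1 base, and the probes of every pair were hybridised with the same RNA. Close means therefore do not check the differences between goats, which the SD between arrays includes. The largest gap, 0.56, was that of the ZO1 probes, which share 59 bases and lie close to background, and the next was 0.22, for the GJA1 probes.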

How the data were processed

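Skin of 6 goats was measured on 3 two-colour arrays. The deposited scanner files, which the authors made with Feature Extraction 10.7, give, for both dyes and without normalization, every spot's mean intensity and a median background intensity around it. They also hold a log10 ratio after background subtraction and dye normalization, and the authors deposited a table of log2 ratios. The genome build is not given in the sources used here, so no coordinates are printed. Of the 23 identifiers, 0 accessions and 13 symbols matched the goat gene table, and genes keep the array's names.

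Background was corrected with normexp (offset 50) on all spots, controls were left out, and loess was run within arrays in R 4.3.3 with limma 3.58.1. Flagged outlier spots were dropped and spots of a probe averaged. limma tested log2 ratios against 0 for 14977 probes with at least 2 arrays, with Benjamini-Hochberg adjustment and a threshold of 0.05. Each array pairs goats of the same parent, as the paper states, so the test is paired. Levels are the channels after loess and Aquantile normalization. The number of arrays limits the precision. The median intensity was 4587 to 7120 in Cy5 and 2688 to 3911 in Cy3 (13872 to 14328 spots above background in Cy5, 14193 to 14602 in Cy3), 0 spots were saturated, and 38 to 91 were flagged. All arrays came from 1 slide and 1 scan. The ratios of the arrays correlated with r of 0.177 to 0.359 over probes.

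Genes named are, per role group, up to 3 measured probes with the largest mean ratio of 1 sign on all arrays, the defining genes of each junction type, and those nearest a 2-fold change. Others were named to account for the rest. The probe of 1 gene enters the counts and medians but is not reported here. Members and lists were chosen with earlier results of these data known. The test was checked on simulated ratios. Alternatives were other background corrections and normalizations, the deposited ratios, filters on dim probes, kept flagged spots, each array left out, averaged probes, other eBayes settings and separate channels. Figures were drawn with matplotlib.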

Additional observations from a re-analysis of the deposited data

How the results depend on the processing

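Calls among the 38 probes were 0 under every alternative but median centring, which gave 10. The count of 2-fold changes was 1 with median centring, against 370 of all 14977 probes. It was 5 with Feature Extraction's own log ratio, against 291 of 14593, and 5 with the authors' value table, against 474 of 15008. In both, the 5 were both PRD-SPRRII, both ITGA4 and 1 ZO1 probe, all near background. When each array was left out, the count ranged from 0 to 2, against 157 to 286 of all probes. With median centring the median was −0.033 for tight junction, −0.37 for cornified envelope and 0.31 for desmosomal plaque proteins. For the cornified envelope it was −0.45 with Feature Extraction's log ratio, −0.18 when only probes above background in 1 channel were kept, and −0.15 to 0.14 when each array was left out. The median of all 38 probes was −0.087 to 0.10 with each array left out, positive without replicate 3. Median centring turned the mean to 0.088 for ITGB1BP1, 0.31 for plakoglobin, 0.31 for desmoplakin, 0.12 and 0.13 for ITGAV and 0.14 for ITGB1. It also turned 3 probes at or near background, whose values (−0.12 for ZO1 at base 212, −0.33 and −0.37 for LOC443313) stand for no measured level. Leaving out each array in turn, the mean of ITGB3 ranged from −0.10 to 0.0018, of periplakin from −0.15 to 0.21, of ITGB1 from −0.19 to 0.011, of desmoplakin from −0.27 to 0.13, of PRD-SPRRII from −0.88 to 0.12 and from −0.78 to 0.23 on its probes, and of ITGAV from −0.17 to 0.13 and from −0.20 to 0.10. The sign turned without replicate 1 for ITGB3, periplakin and ITGB1, without replicate 2 or 3 for desmoplakin (0.13 for each), and without replicate 3 for PRD-SPRRII and ITGAV. The cause of these turns was not tested, except that each left-out array removes its own ratio. Taking the channels as unpaired samples, without the replicate block, gave 0 calls among the 38 probes and 0 among all probes. Since the paired fit also called 0 of the 38, this count cannot show whether the pairing mattered. At an unadjusted p under 0.05 in limma, 14 of the 38 passed in the paired fit and 5 in the unpaired one. Probes of GJB2, GJA1, ITGB6, ITGB2, ITGAM, ITGAL and ITGA4 kept their sign under every alternative that included them. Among others, so did the probes of ZO2, ZO3, claudin 4, claudin 17 and CIB1 and the ZO1 probe at base 211, near background. A kept sign therefore does not set the first genes apart. The share of all probes that kept their sign was not computed.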
